A study of Mus musculus with 8 samples.

Results

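The 10 genes for receptors that guide blood stem cells to their niche were followed in neonatal and young mouse haematopoietic stem cells (HSCs). They were chosen by name from the receptors for chemokines, sphingosine-1-phosphate (S1P) and extracellular calcium, and are 10 of 22050 genes with a messenger RNA model in the deposited files. They are Cxcr4, Ackr3, Ccr1, Ccr7, Cxcr2, S1pr1, S1pr2, S1pr3, S1pr4 and Casr. All mice were C57BL/6, an inbred strain, the labels name no allele or agent in either group, and the tissue was bone marrow. HSCs were sorted as lineage-negative CD150+ EPCR+ CD48- cells, 100 to a library. Of 8 libraries, 4 were made at postnatal day 5 (P5) and 4 at the age of 4 weeks. Whether each library had its own animal is not in the labels, so the spread behind the p-values is that between these samples and may be technical. Cultured HSCs, also mentioned by the series, were not analysed here.

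HSCs are held in the marrow by CXCL12, which niche cells release and which HSCs sense through CXCR4. S1P is abundant in blood and scarce inside tissues, and S1PR1 draws cells out along that gradient. All 10 receptors pass through the membrane in the same seven-helix fold, and all but ACKR3 signal mainly through heterotrimeric G proteins, while ACKR3 takes up CXCL12 and recruits arrestins. Neonatal HSCs belong to the period in which stem cells move from fetal liver to marrow.

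S1pr1, the S1P receptor known for egress of lymphocytes from lymphoid organs, was 2.02-fold higher at P5. Cxcr4, the CXCL12 receptor, had the highest mean level per kb of exon of the 10 receptor genes at both ages and no difference that passed the test, with a 95% interval of the fold between 0.802 and 1.17. S1pr4, the S1P receptor typical of blood cells, came next on that scale, and its difference did not pass the test either. Ackr3, Ccr1, Ccr7, Cxcr2 and Casr had between 7 and 80 exon reads each over all 8 libraries, too few for the test across genes. Of the 5 receptor genes tested, 1 was called higher at P5 (Benjamini-Hochberg adjusted p under 0.05, quasi-likelihood test of edgeR), and 7.99% of the 12235 genes tested were higher. None of the 5 was lower by edgeR, DESeq2 or limma-voom, none was lower at an unadjusted p under 0.05, and 8.55% of tested genes were lower. A count of 1 in 5 is too small to be read against those shares. Levels below are TMM-scaled exon reads in CPM, and fold changes are P5 over 4 weeks.

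The libraries held 6142760 to 7470777 exon reads at P5 and 5775130 to 7212446 at 4 weeks. The genes of the sort gate were present, or for Cd48 low, at both ages: Procr (EPCR) had 55.0 ± 7.996 CPM at P5 and 57.1 ± 8.03 at 4 weeks, Slamf1 (CD150) 33.8 ± 4.69 and 36.6 ± 4.40, and Cd48 4.98 ± 3.57 and 5.10 ± 2.66 (mean ± SD, n = 4 each). Over 12 HSC markers, all with reads, the summed level was 5232 to 5826 CPM at P5 and 4694 to 5303 at 4 weeks, with Hlf the most abundant. Of these, 4 were called higher at P5, Ctnnal1, Tek, Fgd5 and Mecom (log2 fold changes 1.13, 0.65, 0.60 and 0.355). Ly6a was the 1 called lower (log2 fold change -1.53, edgeR adjusted p = 1.49e-05), so overlapping sums do not mean equal markers. Of 10 marker lists of other cells, 3 had sums that lay higher in every P5 library. These were the gate-negative list (62.6 to 106.5 against 20.5 to 31.9 CPM, mostly Itgam), the B-cell list (34.1 to 51.7 against 20.9 to 26.1, mostly Cd79b) and the erythroid list (583.8 to 921 against 94.95 to 161 CPM, mostly Hbb-bt). In the B-cell list Ms4a1 and Pax5 had no read in any library, and in the gate-negative list Ly6g and Cd3e had none. Sums of the other lists overlapped: neutrophil (27.2 to 46.3 at P5 and 28.3 to 36.7 at 4 weeks, led by Prtn3), monocyte and macrophage (52.8 to 300.6 and 49.8 to 80.6, Ms4a6c), T and NK cell (30.4 to 48.7 and 27.7 to 42.6, Lck), dendritic cell (135.8 to 229.3 and 109.3 to 148.6, Flt3), megakaryocyte (1034 to 1316 and 1279 to 1426), endothelial (982.1 to 1115 and 954.7 to 1106, Eng) and stromal (33.1 to 63.1 and 19.8 to 101.7, Nes). Y-linked reads numbered 2 and 0 in P5 replicates 1 and 3 and 1532 to 2293 in the other 6 libraries, so the P5 group holds libraries with and without them, and values are also given within the 6.

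The level of each receptor gene was set against the others per kb of exon. At P5 the order was Cxcr4 (61.7 CPM per kb), S1pr4 (53.0), S1pr1 (20.2), S1pr2 (3.05), S1pr3 (1.10), Cxcr2 (0.533), Ccr7 (0.253), Ccr1 (0.205), Ackr3 (0.117) and Casr (0.00942). At 4 weeks it was Cxcr4 (63.6), S1pr4 (43.4), S1pr1 (9.99), S1pr2 (3.24), Cxcr2 (0.451), S1pr3 (0.436), Ccr7 (0.150), Ccr1 (0.112), Casr (0.0345) and Ackr3, which had no exon read. The same first 4 genes thus stood in the same order at both ages, with S1pr1 well below Cxcr4 and S1pr4 and above the rest. The ranges of Cxcr4 and S1pr4 overlapped at P5 (52.7 to 77.4 against 45.0 to 67.35 CPM per kb) and not at 4 weeks (56.7 to 74.98 against 36.7 to 51.05). S1pr4, S1pr1 and S1pr2 lay apart from each other at both ages, and from S1pr3 or Cxcr2 downwards each gene overlapped its neighbour. Among all 22050 genes, Cxcr4 lay above 96.5% at P5 and 96.9% at 4 weeks, S1pr4 above 95.6% and 94.1%, and S1pr1 above 82.9% and 68.8%.

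**Figure D1:**
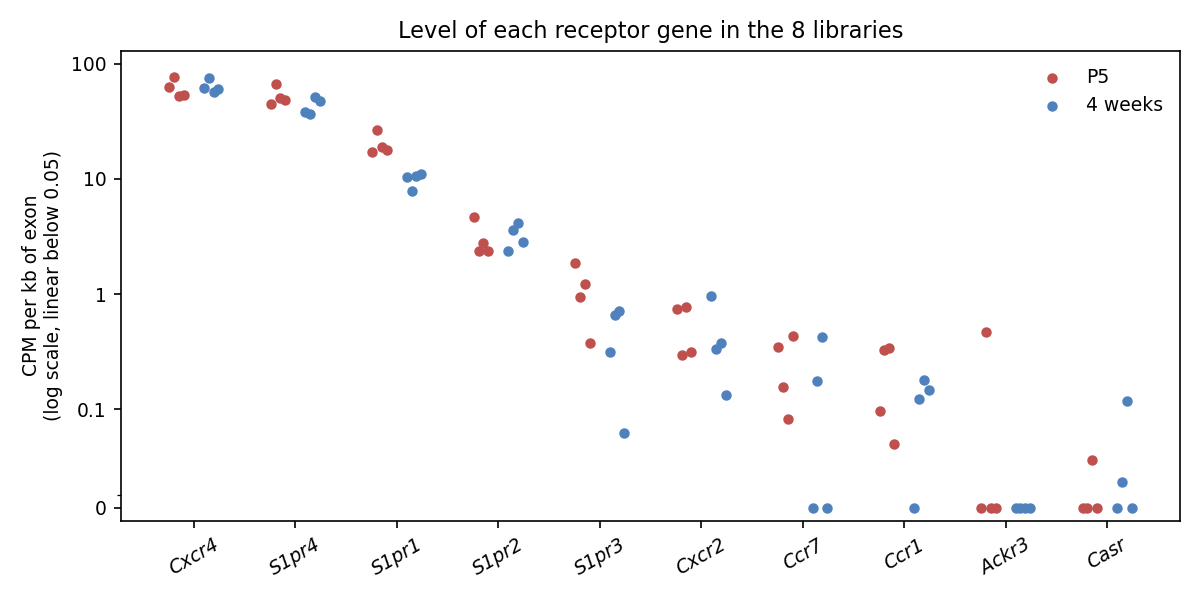
CPM per kb of exon (vertical axis, log scale, linear below 0.05) of the 10 receptor genes, 1 point for each library, P5 in red left of 4 weeks in blue. Genes run in their order at P5: Cxcr4, S1pr4 and S1pr1 lie above all others, and S1pr1 is the gene among them whose ages do not overlap.

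The CXCL12 receptors lay at opposite ends of this order. Cxcr4 (chromosome 1, 128588199 to 128592299, all positions on GRCm38.p6) had 118, 144, 97.9 and 98.8 CPM in P5 libraries, against 115, 139, 105 and 113 CPM in 4-week libraries. The ages overlapped nearly in full, and replicate 2 was the highest library of each age. The means were 114.5 ± 21.5 CPM at P5 and 118.2 ± 14.6 at 4 weeks (mean ± SD, n = 4 each), with a log2 fold change of -0.04 (SE 0.127, 95% interval -0.32 to 0.23, edgeR adjusted p = 0.855). The sign of this small difference turned when single libraries were left out, and within the 6 libraries with Y-linked reads it was 0.04 (adjusted p = 0.923). Introns held 1.57% ± 0.866 of Cxcr4 reads at P5 and 1.59% ± 0.725 at 4 weeks (mean ± SD, n = 4 each).

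Ackr3, the atypical receptor that removes CXCL12 (chromosome 1, 90203980 to 90215724), had 0, 7, 0 and 0 exon reads in P5 libraries, against none in any 4-week library. All 7 exon reads were in P5 replicate 2, at 1.09 CPM. Its intron reads numbered 10, 0, 1 and 1 in P5 libraries, against 0, 2, 5 and 0 in 4-week libraries. The ages could not be told apart in exon reads at this depth (two-sided exact permutation p = 1 over 70 splits), and no exon read over a group allows a level of up to 0.119 CPM at 4 weeks, by a floor of 3 reads over the group that covers counting error only.

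The promoters of both genes are shown because they share a ligand and a TATA-like motif, and one gene was among the most abundant while the other was barely detected. The windows run from 250 bases before to 50 bases after the start (RefSeq, GRCm38.p6), Cxcr4 at chr1:128592250-128592549 on the minus strand and Ackr3 at chr1:90203730-90204029 on the plus strand. Capitals mark TATAAA on either strand, and in Cxcr4 the matches on the 2 strands overlap.
Cxcr4: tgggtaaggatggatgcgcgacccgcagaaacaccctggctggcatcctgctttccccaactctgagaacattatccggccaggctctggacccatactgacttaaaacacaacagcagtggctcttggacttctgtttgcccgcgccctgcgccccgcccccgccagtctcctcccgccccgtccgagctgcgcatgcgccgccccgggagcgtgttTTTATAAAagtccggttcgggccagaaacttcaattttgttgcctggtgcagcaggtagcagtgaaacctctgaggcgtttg
Ackr3: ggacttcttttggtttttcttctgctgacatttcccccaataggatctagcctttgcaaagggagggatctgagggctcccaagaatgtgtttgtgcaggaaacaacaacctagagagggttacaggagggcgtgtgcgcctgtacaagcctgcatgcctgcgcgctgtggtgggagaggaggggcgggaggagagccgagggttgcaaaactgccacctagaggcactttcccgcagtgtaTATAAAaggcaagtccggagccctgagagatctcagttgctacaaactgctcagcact
The matches begin 30 and 32 bases before the start in Cxcr4 and 8 bases before it in Ackr3. Of the 8 receptor genes with a promoter in the table, 2 held the motif, and 13.6% of all 32851 promoters of this length did. The Cxcr4 window held 20 CpG dinucleotides and 59.3% G and C, and the Ackr3 window 8 and 54.0%, beside a median of 7 CpG over all promoters. These letters are a description of the windows, and a match is not a site in use.

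The other chemokine receptors of the set were scarce at both ages. Cxcr2, the neutrophil receptor for ELR chemokines (chromosome 1, 74153994 to 74161246), had 17, 6, 15 and 7 exon reads in P5 libraries, against 19, 6, 7 and 3 in 4-week libraries. Ccr1, a receptor for CCL3 and CCL5 (chromosome 9, 123962126 to 123968692), had 2, 6, 6 and 1 reads at P5, against 0, 2, 3 and 3 at 4 weeks. Ccr7, which guides lymphocytes and dendritic cells to lymph nodes (chromosome 11, 99144199 to 99155077), had 5, 2, 1 and 6 reads at P5, against 0, 2, 5 and 0 at 4 weeks. Libraries of the ages overlapped for each of these genes, and a difference was not detectable at this depth. Two-sided exact permutation tests over 70 splits gave p = 0.886 for Cxcr2, 0.343 for Ccr1 and 0.429 for Ccr7, where the smallest possible was 0.0286. Without the filter on low counts, edgeR gave adjusted p = 0.852 for Cxcr2, 0.648 for Ccr1, 0.698 for Ccr7, 0.235 for Ackr3 and 0.525 for Casr.

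S1pr1 (chromosome 3, 115710433 to 115715055) had 384, 524, 357 and 380 exon reads in P5 libraries, against 201, 138, 191 and 241 in 4-week libraries. On the CPM scale these were 52.35, 81.4, 57.7 and 53.6 at P5, against 31.8, 23.8, 32.1 and 33.4 at 4 weeks. Every P5 library lay above every 4-week library, with replicate 2 the highest library at P5 and the 4-week library with the same number the lowest at 4 weeks. Among the 5 tested receptor genes S1pr1 alone had ages that did not overlap, and 21.2% of all genes tested had such a separation in either direction. The means were 61.3 ± 13.6 CPM at P5 and 30.3 ± 4.38 at 4 weeks (mean ± SD, n = 4 each), with a log2 fold change of 1.01 (SE 0.160, 95% interval 0.67 to 1.36, edgeR adjusted p = 0.000767). Leaving out single libraries gave log2 fold changes between 0.85, without P5 replicate 2, and 1.08, and all 8 of these fits kept the call. Within the 6 libraries with Y-linked reads it was 1.15 (adjusted p = 0.00312). The authors' deposited table gave a fold of -2.02 for S1pr1, negative there meaning higher at P5, with a corrected p of 3.03e-06, and S1pr1 was the 1 receptor gene of the 10 that it called.

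**Figure D2:**
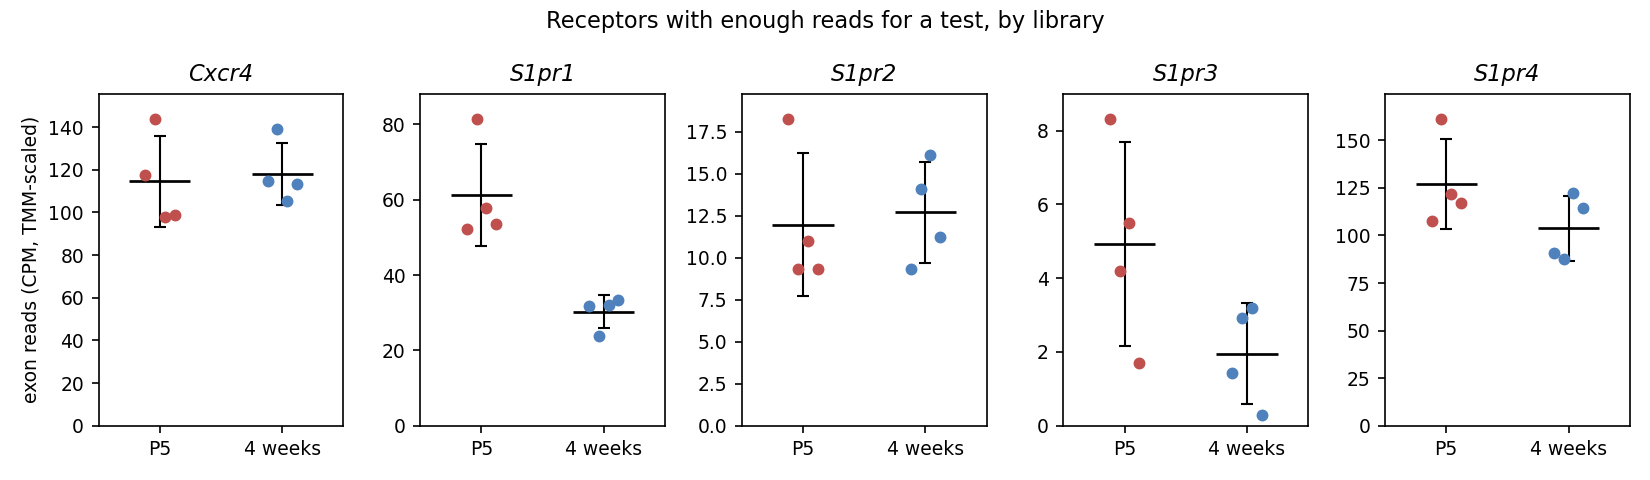
Exon reads in CPM (vertical axes, each from 0) of the 5 receptor genes with enough reads for a test, 1 point for each library, P5 left of 4 weeks. Lines are means and bars SDs of 4 libraries; the ages separate for S1pr1, at 52.35 to 81.4 CPM against 23.8 to 33.4, and overlap for the others.

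Reads in the introns of S1pr1, a measure apart from its exon reads in the same libraries, moved the same way. They stood at 11.45, 17.4, 17.6 and 10.01 CPM at P5, against 6.95, 7.58, 8.58 and 7.90 at 4 weeks, scaled to the exon library. The P5 libraries were again all above the 4-week libraries. A fit on intron reads of all genes gave a log2 fold change of 1.02 (edgeR adjusted p = 0.0173), and 9.01% of the 13180 genes in that fit were higher at P5. Introns held 18.7% ± 3.29 of S1pr1 reads at P5 and 20.6% ± 2.72 at 4 weeks (mean ± SD, n = 4 each).

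Endothelial cells also express S1pr1, and endothelial markers were looked at beside it. The 12 markers, all with reads, overlapped between the ages in sum. Of these, 10 could be tested and 3 were called higher. Cdh5, the endothelial cadherin, had 5.73 to 19.4 CPM at P5 and 0 to 0.168 at 4 weeks (edgeR adjusted p = 1.72e-05). It passed the filter on low counts through its P5 libraries alone. Ptprb, a phosphatase that binds this cadherin, had 24.96 to 52.9 CPM at P5 and 3.79 to 4.88 at 4 weeks (adjusted p = 5.22e-06). Cldn5, a tight junction protein of vessels, had 2.26 to 10.1 CPM at P5 and 1.35 to 1.896 at 4 weeks (adjusted p = 0.0230). Plvap and Flt1 stayed at or under 2.05 and 1.94 CPM in every P5 library and at or under 1.01 and 0.316 in every 4-week library, and Kdr had 4.09 to 5.82 CPM at P5 and 2.24 to 7.24 at 4 weeks. Eng lay lower in every P5 library, at 347.0 to 379.6 CPM against 385.5 to 426.5 at 4 weeks (edgeR adjusted p = 0.140). Log2 fold changes were -0.19 for Tie1 (adjusted p = 0.143), -0.03 for Esam (0.843) and 0.19 for Emcn (0.364). Pecam1 had 0.33 (0.0745) and Stab2 0.05 (0.960). Of the 12 monocyte and macrophage markers, all with reads, 7 could be tested, 3 were higher and 1 was lower. Csf1r, the receptor for the macrophage growth factor CSF1, had 5.04, 158, 7.92 and 3.53 CPM in P5 libraries, against 3.45 to 3.95 CPM in 4-week libraries (adjusted p = 0.0366), and its highest library, P5 replicate 2, was also the highest for S1pr1. Without that library Csf1r (adjusted p = 0.314) and Fcgr1 (adjusted p = 0.177) were not called, and S1pr1 was, at a log2 fold change of 0.85 (adjusted p = 0.000818). Cd68, a lysosomal protein of macrophages, had 21.0 to 37.8 CPM at P5 and 12.1 to 16.4 at 4 weeks (adjusted p = 0.00141), and Fcgr1, an IgG receptor, 3.41 to 8.70 at P5 and 1.25 to 2.76 at 4 weeks (adjusted p = 0.0498). Ms4a6c, the most abundant of them, was lower, at 15.0 to 27.5 CPM at P5 and 27.4 to 43.8 at 4 weeks (adjusted p = 0.00904). Cdh5, Ptprb, Cldn5, Cd68 and Fcgr1, and the gate-negative, B-cell and erythroid lists above, were higher at P5 like S1pr1. Of the genes named here, Eng, Tie1, Esam and Ms4a6c leaned the other way. The part of any of these in the level of S1pr1 was not tested. In libraries of sorted cells, fewer cells of a type and less RNA per cell cannot be told apart.

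The other S1P receptor genes gave no call. S1pr4 (chromosome 10, 81497745 to 81500137) had 108, 161, 122 and 117 CPM in P5 libraries, against 91.0, 87.7, 122 and 115 CPM in 4-week libraries. The ages overlapped, with P5 replicate 2 above all other libraries and 4-week replicates 1 and 2 below them. The means were 126.9 ± 23.6 CPM at P5 and 103.9 ± 17.1 at 4 weeks (mean ± SD, n = 4 each), with a log2 fold change of 0.29 (SE 0.137, 95% interval -0.01 to 0.58, edgeR adjusted p = 0.178). Without P5 replicate 2 the value was 0.15 (adjusted p = 0.431).

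S1pr2, which restrains migration (chromosome 9, 20965952 to 20976793), had 18.3, 9.33, 10.99 and 9.31 CPM at P5, against 9.32, 14.1, 16.15 and 11.2 CPM at 4 weeks. P5 replicate 1 was the highest of all 8 libraries and the other P5 libraries, at 9.31 to 10.99 CPM, lay close to the lowest of 4 weeks. The log2 fold change was -0.08 (SE 0.256, 95% interval -0.63 to 0.47, edgeR adjusted p = 0.875). Without P5 replicate 1 it was -0.36 (adjusted p = 0.351), and within the 6 libraries with Y-linked reads it was -0.44 (adjusted p = 0.368).

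S1pr3, a receptor of vessels and stroma (chromosome 13, 51408618 to 51422797), had 61, 27, 34 and 12 exon reads in P5 libraries, against 9, 17, 19 and 2 in 4-week libraries. The counts were low and spread widely, and the library with the fewest reads at P5 lay among those of 4 weeks. S1pr3 passed the filter on low counts mainly through its P5 reads, 134 against 47 at 4 weeks. The log2 fold change was 1.35 (SE 0.598, 95% interval 0.06 to 2.64, edgeR adjusted p = 0.147), and within the 6 libraries with Y-linked reads it was 0.60 (adjusted p = 0.705). Intron reads stood the other way, at 2.05, 2.49, 2.10 and 1.55 CPM at P5, against 2.53, 3.62, 6.90 and 2.08 at 4 weeks, with a log2 fold change of -0.71 (adjusted p = 0.314). An antisense long RNA, Gm32834, overlaps the gene in the annotation (GENCODE vM21), and these libraries do not mark strand, so reads of either could be counted for the other.

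**Figure D3:**
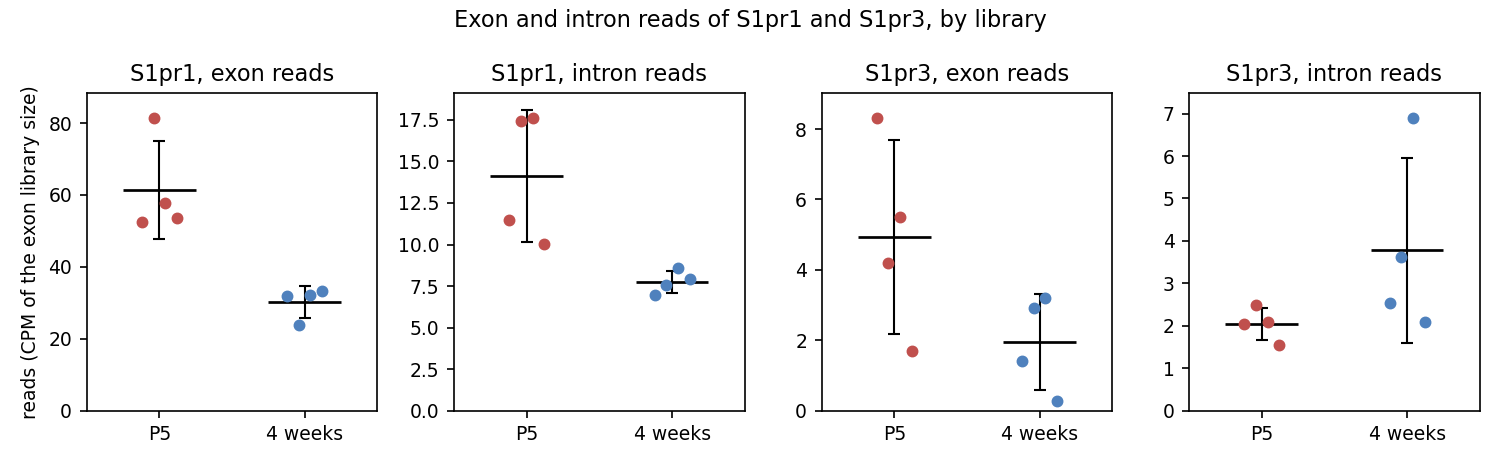
Exon and intron reads of S1pr1 and S1pr3, in CPM of the exon library (vertical axes, each from 0), 1 point for each library, P5 left of 4 weeks, with means and SDs of 4 libraries. For S1pr1 both kinds of read lie higher in every P5 library, and for S1pr3 exon and intron reads lean in opposite directions with ages that overlap.

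S1pr1 was called and S1pr4, which leaned the same way, was not, and that contrast is no test between the genes. The make-up of S1P receptor RNA is described here from the same reads. S1pr5, the fifth S1P receptor gene, is not among the 10 and is left out of the shares, at 2, 5, 12 and 13 exon reads in P5 libraries, against 8, 4, 4 and 3 in 4-week libraries. Per kb of exon, S1pr1 took 26.0% ± 1.08 of the summed level of the 4 S1P receptor genes at P5 and 17.6% ± 2.10 at 4 weeks (mean ± SD, n = 4 each). S1pr4 took 68.45% ± 2.16 at P5 and 75.9% ± 1.46 at 4 weeks, S1pr2 4.10% ± 1.87 and 5.71% ± 1.34, and S1pr3 1.46% ± 0.941 and 0.783% ± 0.544. S1pr4 was thus the main S1P receptor RNA in all 8 libraries and S1pr1 the next. The ratio of S1pr1 to S1pr4 was 0.384, 0.399, 0.375 and 0.361 in P5 libraries, against 0.276, 0.214, 0.208 and 0.230 in 4-week libraries. All P5 ratios were above all 4-week ratios, and P5 replicate 2, the highest library of its age for both genes, had a ratio close to the other 3. The ratio of S1pr1 to Cxcr4 was 0.328 ± 0.0389 at P5 and 0.161 ± 0.0379 at 4 weeks (mean ± SD, n = 4 each), again with no overlap, at 0.273 to 0.361 against 0.105 to 0.187. The ratio of S1pr4 to Cxcr4 overlapped, at 0.710 to 0.964 against 0.489 to 0.900. The summed level of the 4 S1P receptor genes was 68.8 to 97.55 CPM per kb at P5 and 48.8 to 66.5 at 4 weeks. Ratios and shares are descriptions of the same reads, with no test, and they show unequal change, not which gene stayed constant.

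**Figure D4:**
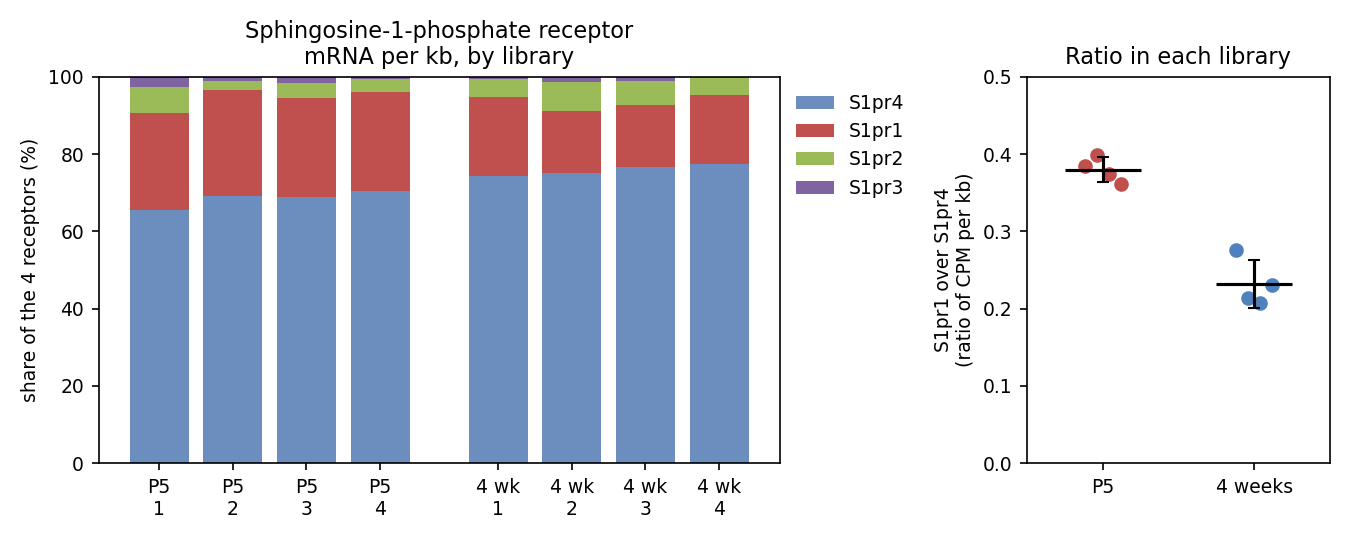
Left, share (%) of the summed CPM per kb of S1pr4, S1pr1, S1pr2 and S1pr3 in each library, P5 left of 4 weeks (4 wk). Right, the ratio of S1pr1 to S1pr4 in each library with the mean and SD of 4, at 0.361 to 0.399 at P5 and 0.208 to 0.276 at 4 weeks.

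The genes with profiles most like that of S1pr1 over the 8 libraries were Arid5b, Kif21b and Rdh12. The root-mean-square distance between centred log2 CPM profiles was 0.05, 0.08 and 0.10 for these, over 12235 genes tested. Arid5b, a DNA-binding protein, had 101 ± 22.6 CPM at P5 and 50.4 ± 7.19 at 4 weeks (mean ± SD, n = 4 each). Kif21b, a kinesin motor, had 239 ± 40.4 CPM at P5 and 124 ± 18.4 at 4 weeks, and Rdh12, a retinol dehydrogenase, 22.2 ± 4.05 at P5 and 11.7 ± 1.45 at 4 weeks (mean ± SD, n = 4 each). In all 3, as in S1pr1, replicate 2 was the highest library at P5 and the lowest at 4 weeks. That likeness follows from their choice by profile over the same libraries.

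Casr, the calcium-sensing receptor by which stem cells lodge near bone surfaces (chromosome 16, 36490585 to 36562141), had 0, 0, 2 and 0 exon reads in P5 libraries, against 0, 1, 6 and 0 in 4-week libraries. Its exon reads were at the limit of detection at both ages (two-sided exact permutation p = 0.714 over 70 splits). Casr intron reads numbered 5, 3, 9 and 4 at P5, against 3, 5, 5 and 2 at 4 weeks. A small RNA, Gm25902, overlaps the gene in the annotation.

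The pathways around these receptors were described from 8 lists, 122 genes in all, of which 88 could be tested. Of the 88, 15 were higher and 8 lower at P5, or 26.1%, where 16.5% of all tested genes were called in either direction. The median log2 fold change of all tested genes was -0.0042. No test set these lists apart from other genes. The calls include genes that passed the filter on low counts through a single age, among them Cxcr3, Cxcr1, Lpar1 and Pik3r6. Within the 6 libraries with Y-linked reads, 4 of the 23 calls were lost, those of Cx3cl1 (edgeR adjusted p = 0.0642), Lpar1 (0.118), Gnai2 (0.0557) and Pik3r6 (0.0761).

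Among 19 other chemokine receptors, 6 could be tested, 2 were higher and 1 was lower, with a median log2 fold change of -0.18. Cxcr3, a receptor for interferon-induced chemokines, had 65, 23, 29 and 25 exon reads in P5 libraries, against 4, 0, 1 and 3 in 4-week libraries (log2 fold change 3.96, SE 0.620, edgeR adjusted p = 0.000724). Cxcr1, a relative of Cxcr2, stood the other way, with 2, 8, 8 and 5 reads at P5, against 64, 83, 41 and 79 at 4 weeks, and was 12.04-fold lower (adjusted p = 6.38e-05). Both genes separated the ages, at low levels of at most 14.3 CPM. Cxcr3 passed the filter on low counts through its P5 libraries alone, and Cxcr1 through its 4-week libraries alone. A higher level at that age was thus a condition of their test. Ccrl2, an atypical receptor that binds chemerin and the most abundant of this list, had 9.37 ± 1.73 CPM at P5 and 14.2 ± 2.86 at 4 weeks (mean ± SD, n = 4 each, adjusted p = 0.0733).

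Of 24 chemokine ligands, 8 could be tested, 1 was higher and 1 was lower (median log2 fold change -0.27). Ccl9, a ligand of Ccr1, had 6.88 ± 4.41 CPM at P5 and 1.49 ± 1.04 at 4 weeks (mean ± SD, n = 4 each; fitted log2 fold change 2.20, edgeR adjusted p = 0.0168), and without P5 replicate 2 it was not called (adjusted p = 0.0510). Cx3cl1, fractalkine, had 5.68 ± 1.79 CPM at P5 and 12.6 ± 3.38 at 4 weeks (mean ± SD, n = 4 each; fitted log2 fold change -1.15, adjusted p = 0.0125), a call lost without 4-week replicate 1 (adjusted p = 0.0533). Mif, a cytokine that also binds CXCR4, was the most abundant at 98.6 ± 17.98 CPM at P5 and 92.0 ± 15.9 at 4 weeks (mean ± SD, n = 4 each, adjusted p = 0.679). Cxcl12 itself, named after its values were seen, had 1 read in the P5 libraries together and 374 in 4-week libraries, of which 364 were in replicate 4. That library also held 41 Lepr, 30 Adipoq and 15 Dcn reads, genes of CXCL12-producing marrow stroma. No other library had an Adipoq or Dcn read. Without that library the log2 fold change of Cxcr4 was -0.06 and that of S1pr1 1.06.

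The S1P pathway was described by a pair of these lists. Of 7 other lysophospholipid receptors, 4 could be tested and 1 was higher, with none lower at an unadjusted p under 0.05 or by DESeq2 or limma-voom (median log2 fold change 0.11). Lpar1, a receptor for lysophosphatidic acid, had 5.05 ± 2.64 CPM at P5 and 0.581 ± 0.587 at 4 weeks (mean ± SD, n = 4 each; fitted log2 fold change 3.12, edgeR adjusted p = 0.00778), and Lpar5, the most abundant, 35.3 ± 0.778 and 41.8 ± 5.86 (adjusted p = 0.201). Lpar1 passed the filter on low counts through its P5 libraries alone. Among 16 genes that make, carry or break down S1P, 14 could be tested, 1 was higher and 1 was lower (median -0.13), or 14.3% called beside 16.5% of all tested genes. Acer3, a ceramidase that frees sphingosine, had 70.9 ± 14.4 CPM at P5 and 30.9 ± 4.72 at 4 weeks (mean ± SD, n = 4 each; fitted log2 fold change 1.20, adjusted p = 0.000178). Sgpp1, an S1P phosphatase, had 36.1 ± 3.44 CPM at P5 and 52.75 ± 7.94 at 4 weeks (mean ± SD, n = 4 each; fitted log2 fold change -0.55, adjusted p = 0.0114). Spns2, the S1P exporter, was the most abundant of the list, at 376 ± 12.9 CPM at P5 and 399 ± 37.7 at 4 weeks (mean ± SD, n = 4 each; fitted log2 fold change -0.08, adjusted p = 0.526).

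Below the receptors, both the G protein subunits and their regulators held genes called in either direction. All 15 G protein genes could be tested, 1 was higher and 2 were lower (median log2 fold change 0.07). Gng12, a gamma subunit, had a log2 fold change of -0.61 (edgeR adjusted p = 0.000787), and Gna13, an alpha subunit to which S1PR2 couples, -0.30 (adjusted p = 0.00724). Gnai2, the inhibitory alpha subunit through which chemokine receptors and S1PR1 signal, had 485.5 ± 36.8 CPM at P5 and 411 ± 10.04 at 4 weeks (mean ± SD, n = 4 each; fitted log2 fold change 0.24, adjusted p = 0.0389), a call kept in 9 of 22 alternative settings. Gnas, the stimulatory alpha subunit and the most abundant, had 581.5 ± 66.96 and 503 ± 19.8 CPM (adjusted p = 0.117).

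Of 15 RGS proteins, receptor kinases and arrestins, all tested, 2 were higher and 2 were lower (median log2 fold change 0.04). Rgs1, which dampens signalling of chemokine receptors, had 7.896 to 17.25 CPM in P5 libraries, against 27.75 to 56.9 CPM in 4-week libraries (log2 fold change -1.75, SE 0.258, edgeR adjusted p = 0.000471). Rgs2, which acts mainly on Gq, had 71.6 to 100.3 CPM at P5, against 27.1 to 43.6 CPM at 4 weeks (log2 fold change 1.20, SE 0.150, adjusted p = 0.000111). These relatives moved in opposite directions with no overlap of the ages in either. Adrbk1, the receptor kinase GRK2 that turns off CXCR4 and S1PR1 at the membrane, was 1.29-fold higher (adjusted p = 0.00282), at 370 ± 9.29 CPM at P5 and 286 ± 18.6 at 4 weeks (mean ± SD, n = 4 each), and Rgs18, an RGS protein of megakaryocytes, was 1.23-fold lower (adjusted p = 0.0110).

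Of 17 small GTPases, exchange factors and lipid kinases of migration, all tested, 4 were higher and none lower, also by DESeq2 and limma-voom, with 9 higher and 1 lower at an unadjusted p under 0.05 (median log2 fold change 0.15). Vav3, an exchange factor for Rac, had a log2 fold change of 0.60 (edgeR adjusted p = 0.000142), with uniquely mapped exon reads 0.79 and no call (adjusted p = 0.165), Pik3cg, the lipid kinase activated by G protein beta-gamma subunits, 0.42 (adjusted p = 0.00294), and Rac2, the blood-cell Rac GTPase, 0.41 (adjusted p = 0.00374). Pik3r6, a regulatory partner of Pik3cg, had 3.28 ± 1.19 CPM at P5 and 0.513 ± 0.587 at 4 weeks (mean ± SD, n = 4 each; fitted log2 fold change 2.55, adjusted p = 0.0125). It passed the filter on low counts through its P5 libraries alone. Dock2, the Rac activator of migrating leukocytes and the most abundant, had 1153 ± 55.4 CPM at P5 and 1029 ± 20.97 at 4 weeks (mean ± SD, n = 4 each, adjusted p = 0.123).

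Of 9 genes known to set the surface level or transcription of these receptors, all tested, 3 were higher and 1 was lower (median log2 fold change 0.14). Klf2, a transcription factor that activates S1pr1 in T cells, had 26.45, 64.7, 14.4 and 29.2 CPM in P5 libraries, against 11.1, 9.65, 9.59 and 8.73 CPM in 4-week libraries. All P5 libraries were above those of 4 weeks but spread over a wide range (log2 fold change 1.79, SE 0.353, edgeR adjusted p = 0.00359). Replicate 2 was the highest at P5, as for S1pr1, Cxcr4 and S1pr4. Replicate 3 was the lowest at P5 for Klf2 and lay above replicates 1 and 4 for S1pr1, at 57.7 CPM. A link between these genes was not tested. Cd44, a hyaluronan receptor of homing cells and the most abundant of the list, had 459 ± 8.80 CPM at P5 and 279.5 ± 20.7 at 4 weeks (mean ± SD, n = 4 each; fitted log2 fold change 0.72, adjusted p = 1.85e-05). That call was lost with exon plus intron reads (0.31, adjusted p = 0.0722) and with intron reads (0.34, adjusted p = 0.140). Cd74, a receptor for MIF and partner of CXCR4 as well as the class II invariant chain, had 7.33 to 10.2 CPM at P5, against 28.4 to 82.2 CPM at 4 weeks (log2 fold change -2.65, SE 0.284, adjusted p = 2.97e-05), and with intron reads the value was -0.49 with no call (adjusted p = 0.314). On intron reads the calls of Cx3cl1 (adjusted p = 0.140), Lpar1 (0.145), Sgpp1 (0.802), Gna13 (0.717), Gnai2 (0.212), Rgs2 (0.0989), Adrbk1 (0.382) and Rac2 (0.966) were not made either.

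**Figure D5:**
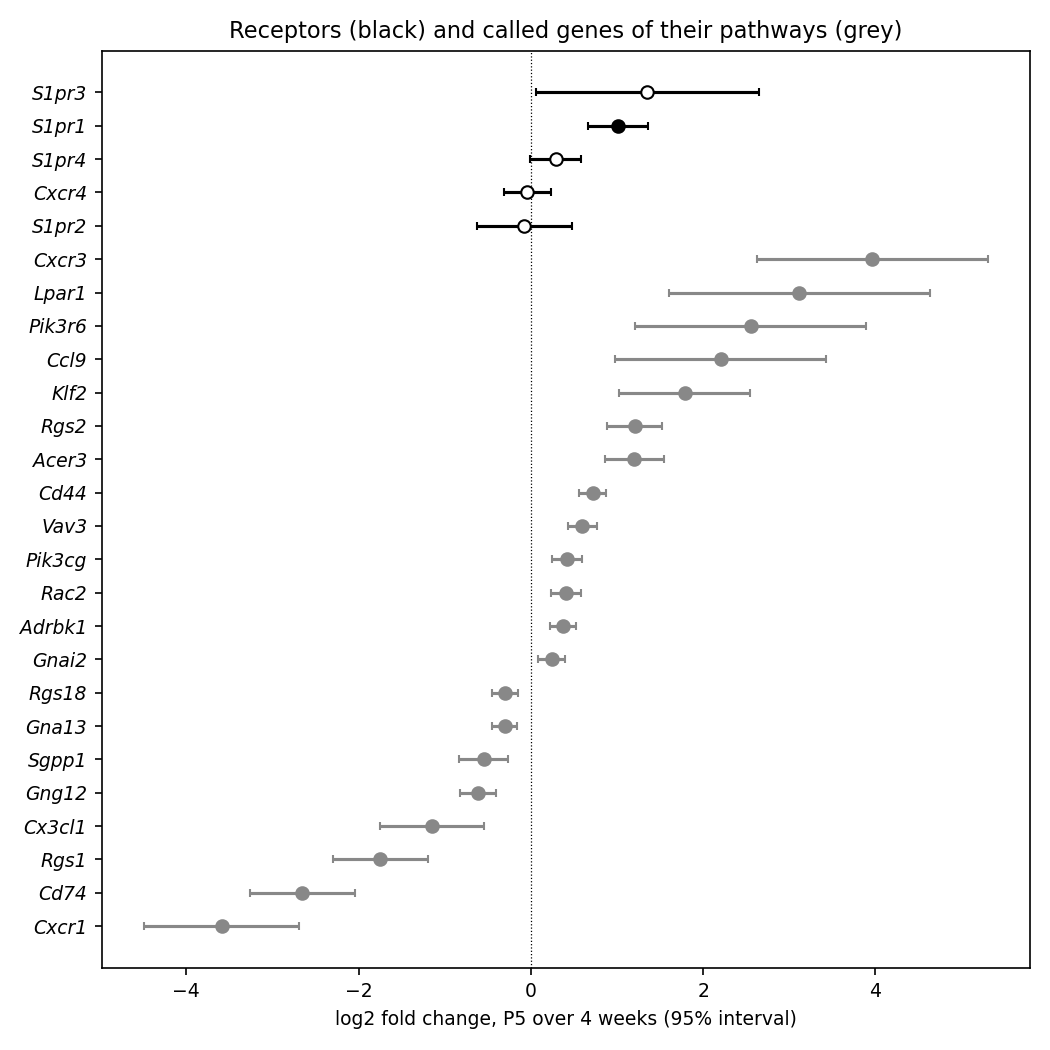
Log2 fold change, P5 over 4 weeks, with its 95% interval (horizontal axis) for the 5 tested receptor genes (black, above) and 21 of the 23 called genes of the 8 pathway lists (grey, below). Filled points have an adjusted p under 0.05; among the receptor genes S1pr1 at 1.01 is filled, and Cxcr4 and S1pr2 lie at -0.04 and -0.08 with intervals across 0.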

How the data were processed

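Messenger RNA was profiled in 8 libraries of 100 sorted cells, made with Nextera XT reagents, per the labels' protocols, so strand is not marked. There are no molecular identifiers, so floors cover counting error only, while the intervals of fold changes come from the edgeR fit and carry the spread between libraries. The authors deposited raw counts of exon, intron and gene reads for 48835 gene rows, with mm10 as the build per the submitters' processing notes. For aligner and counter, versions and names are not given in the sources used. The deposited RPKM values were read but not used for tests. The authors also deposited their own test of the ages, called EDGE per the file headers, with a p-value and a fold as ratio for each gene, and its values are named as theirs where printed. It called 1826 genes at a corrected p under 0.05.

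Expression was taken as total exon reads of 22050 genes with an mRNA model, after 969 genes listed several times were summed and 24 names turned into dates in 1 file were restored from row order. Ages in the labels gave the groups, and titles the replicate numbers. Positions are those of RefSeq on GRCm38.p6. Over all 8 libraries edgeR 4.0.16 in R 4.3.3 was run with TMM scaling, filterByExpr, quasi-likelihood fits and age alone as the model. The 12235 genes kept held 99.8% of exon reads, the common biological coefficient of variation was 0.152, and p-values were adjusted over all of them by Benjamini and Hochberg, with a threshold of 0.05. Standard errors were derived from the F statistic. Receptor genes under the filter were compared with exact permutation tests. Profiles were compared as log2 CPM (prior count 2). Promoters come from RefSeq, and the scripts were checked on simulated data. DESeq2 1.42.0, limma 3.58.1, Python 3.11.15, scipy 1.17.1, numpy 2.4.6, pandas 2.3.3 and matplotlib 3.10.9 were also used.

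The 10 receptor genes, the lists and the tests were chosen with earlier results of these data known. Some genes that the counts include are not reported here. By rule, the text otherwise names all 10, the called genes of each list up to 4 by smallest p and its most abundant tested gene, the most abundant gene of each marker list, the sort gate genes, and the 3 genes nearest in profile to a called receptor gene. Further HSC, endothelial, stromal and monocyte markers, and S1pr5, were named after their values were seen. Alternatives were a replicate block, each library left out, other filters, scalings and tools, uniquely mapped, intron or exon plus intron reads, copies not summed, a Y-linked covariate, the 6 libraries with over 100 Y-linked reads, and a log2 fold change of at least 1.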

Additional observations from a re-analysis of the deposited data

Results flagged for a closer look

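Of 105 groups of 4 libraries, 11 had 1 library far from the other 3 by Dixon's criterion, which chance gives in about 1 of 20 groups. The count cannot be read against that share, since a gene with reads in 1 library of a group meets the criterion by construction, and Arid5b and Kif21b were chosen for their likeness to S1pr1. Among the receptor genes, S1pr1 was lowest in 4-week replicate 2, at 23.8 CPM beside 31.8 to 33.4 CPM in the others of that age, and without it the log2 fold change was 0.93 (edgeR adjusted p = 0.00155). Ackr3 had 1.09 CPM in P5 replicate 2 and none in the other P5 libraries. Casr had 0.323 CPM in P5 replicate 3 and none in the others, and 1.01 CPM in 4-week replicate 3 beside 0 to 0.172 CPM in the others. These Ackr3 and Casr values rest on at most 7 reads.

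Of the genes with profiles like S1pr1, Arid5b was highest in P5 replicate 2 at 134.8 CPM (86.9 to 92.4 in the others) and lowest in 4-week replicate 2 at 39.6 CPM (53.25 to 54.5). Kif21b was lowest in 4-week replicate 2 at 96.85 CPM (129.9 to 135.5). Of pathway and marker genes, Sgpp1 stood at 41.2 CPM in P5 replicate 3 (33.98 to 34.97 in the others) and Cd74 at 10.2 CPM in P5 replicate 1 (7.33 to 7.76). Pik3r6 stood at 1.39 CPM in 4-week replicate 4 (0.158 to 0.337) and Hbb-bt at 128.0 CPM in 4-week replicate 1 (83.1 to 89.6).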

How the results depend on the processing

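S1pr1 kept its direction and its call in all 22 alternatives, with log2 fold changes between 0.85 and 1.15 and adjusted p up to 0.0173, and no other receptor gene was called in any. The alternative of a log2 fold change of at least 1 is a cut on the main fit. S1pr1 met it at 1.01 with an interval from 0.67, so it is no test against that size. Leaving out single libraries gave 702 to 985 genes higher and 795 to 1069 lower over all genes, and 13 to 17 higher and 8 to 9 lower over the pathway lists. Same-numbered libraries did not deviate together (correlations of -0.03, -0.24, -0.10 and -0.05). The labels do not say whether the numbers mark a pairing, and such correlations cannot exclude one. With the replicate block 577 genes were higher, and S1pr1 stood at 1.00 on the log2 scale (adjusted p = 0.0114). The Y-linked covariate gave 628 higher and 608 lower, the 6 libraries with Y-linked reads 619 higher and 638 lower, and a log2 fold change of at least 1 gave 323 and 349. Over the pathway lists, 9 genes were higher with intron reads and 9 at a log2 fold change of at least 1, where 4 were lower.

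Signs turned for small or low values. Cxcr4 ranged from -0.17 to 0.0545 with single libraries left out, and was 0.0583 with exon plus intron reads, 0.0968 with intron reads, 0.0369 with the Y-linked covariate and 0.0368 in the 6 libraries. S1pr2 ranged from -0.36 to 0.0555 with single libraries left out. Mif ranged from -0.0099 to 0.22 there, and was -0.0022 with the Y-linked covariate, -0.0019 in the 6 libraries and -0.64 with intron reads. With intron reads S1pr3 was -0.71, Sgpp1 0.0613, Gnai2 -0.23 and Rac2 -0.0099. The causes were not tested. S1pr4 has no intron reads and S1pr3 did not pass the filter of 5 CPM in 4 libraries, so neither has a value there. Of 25 called genes named among the receptors, the pathway lists and the profiles like S1pr1, 7 were called in every alternative that tested them. These alternatives include the cut at a log2 fold change of at least 1, which smaller calls fail by construction. Gng12, Pik3cg and Kif21b lost their calls at that cut alone. Depth limits Ackr3, Ccr1, Ccr7, Cxcr2, Casr and S1pr3, all with few reads.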
